A study of Tachysurus vachellii with 6 samples.

Results

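The miRNAs miR-1, miR-133, miR-206 and miR-499, known as striated muscle miRNAs, were followed in small RNA of vesicles from catfish liver. The animal is Pelteobagrus vachellii, the darkbarbel catfish, labelled Tachysurus vachellii. Entries were chosen by name, as those of the deposited table that carry 1 of these 4 family numbers after the species prefix, whatever the letter, arm or variant suffix. They came to 10 distinct sequences, listed in 15 rows under 11 names, among 841 entries in all. Fish of the hypoxia group spent 4 h at 1.0 mg/L dissolved oxygen, those of the normoxia group (also labelled 4 h) were kept at 6.8 mg/L, and each group has 3 libraries. All fish had been acclimated and fasted, and hypoxia was made by sealing the water and bubbling nitrogen. The labels do not say whether a library came from 1 fish or from a pool, nor how pure the vesicles were, so the spread behind every p-value may be technical.

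In vertebrates miR-1 and miR-133a are made from shared primary transcripts that are switched on in heart and skeletal muscle, and miR-206 is paired in the same way with miR-133b in skeletal muscle. miR-1 promotes muscle differentiation, and miR-133 favours myoblast proliferation and represses serum response factor, both as described in mouse cells. In zebrafish muscle, miR-1 and miR-133 shape the organisation of sarcomeric actin, and miR-1 and miR-206 restrain the angiogenic factor Vegfa. miR-499 is made from an intron of the myosin gene Myh7b in mammals and favours the slow fibre programme. All 4 families are best known from striated muscle, whereas the main miRNA of hepatocytes is miR-122.

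The sequences are shown because they settle which entries share a target-pairing seed and which differ at an end only. They are printed as deposited, with T for U, 5′ to 3′, and with the seed (bases 2 to 8) in capitals.

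dre-miR-1: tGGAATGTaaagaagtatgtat
oha-miR-1a-3p: tGGAATGTaaagaagtatgtac
dre-miR-206-3p: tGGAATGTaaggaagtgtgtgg
ssc-miR-206: tGGAATGTaaggaagtgtgtga
dre-miR-133a-3p_L-1R+1: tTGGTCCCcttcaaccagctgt
dre-miR-133b-3p_R-1: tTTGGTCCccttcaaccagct
ssc-miR-133b: tTTGGTCCccttcaaccagctat
dre-miR-133a-5p: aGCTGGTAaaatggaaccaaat
ssa-miR-499b-5p_R-1: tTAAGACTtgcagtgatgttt
ssa-miR-499b-3p: aACATCACtttaagtctgtgct

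Names are those of the table, where a prefix such as dre, oha, ssc or ssa stands for the species whose miRNA was matched. The 4 sequences named miR-1 or miR-206 shared the seed GGAATGT, and no other entry of the table carried it. dre-miR-206-3p matched dre-miR-1 at 18 of 22 bases, with A11G, A17G, A21G and T22G counted from the 5′ end of dre-miR-1. oha-miR-1a-3p differed from dre-miR-1 at the last base only (T22C), and ssc-miR-206 from dre-miR-206-3p likewise (G22A). Apart from dre-miR-133a-5p, the other arm with the seed GCTGGTA, the miR-133 sequences fell under 2 seeds. dre-miR-133a-3p_L-1R+1 starts 1 base further in than ssc-miR-133b, which moves its seed to TGGTCCC, where both miR-133b entries have TTGGTCC. Over the 22 bases they share once aligned, those 2 sequences differed at 1 base (A22G, counted from the 5′ end of ssc-miR-133b). dre-miR-133b-3p_R-1 is ssc-miR-133b without its last bases. It ends before the base that differs, so its sequence does not tell miR-133b from miR-133a, though it starts 1 base earlier than the miR-133a entry. Name suffixes such as L-1R+1 were not checked against the named miRNAs. The starts and seeds above are thus those of the entries, and do not show that miR-133a and miR-133b differ there. The sources used here do not give how reads were divided among such close sequences, so the separate values of the miR-133 entries are uncertain.

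Libraries held 2038299 to 8497215 estimated counts, and a count of 3 corresponded to 0.357 to 1.46 CPM. CPM here is the usual count rate on library totals scaled by TMM factors, and a sequence listed more than once carries the sum of its listings. The shallowest library, hypoxia replicate 1, had the fewest entries detected, at 462 against 643 to 725 in the other 5. As a check of the labelled tissue, the hepatocyte family miR-122 summed to 215550 to 262825 CPM. Counts are estimates from PCR reads with no molecular identifiers mentioned, so floors and the exact intervals of shares cover counting error only. The intervals of fold changes come from the edgeR fit and also take in the spread between libraries.

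All 4 families were present in every library at low levels, and none of their tested entries passed the test for a difference between hypoxia and normoxia. Together they took 0.0750% to 0.0976% of counts, which were 1938, 7061 and 4586 counts in hypoxia replicates 1, 2 and 3 and 6811, 4501 and 4390 in normoxia replicates 1, 2 and 3. Of the 10 entries, 6 passed the filter on low counts and were tested (filterByExpr, which needs counts in enough libraries of a group), and 4 were too rare. By edgeR's quasi-likelihood test with Benjamini-Hochberg adjustment, 0 of the 6 passed the threshold of 0.05, against 2.70% of all 519 tested entries. At an unadjusted p under 0.05 the count was also 0 of 6, against 18.5% of all. DESeq2 and limma-voom likewise called 0 of the 6, where they called 7.90% and 4.24% of all tested entries. The median log2 fold change of the 6, hypoxia over normoxia, was 0.17, and that of all 519 was -0.04. Fold changes lay above 0 for 5 of the 6 and for 44.7% of all.

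**Figure D1:**
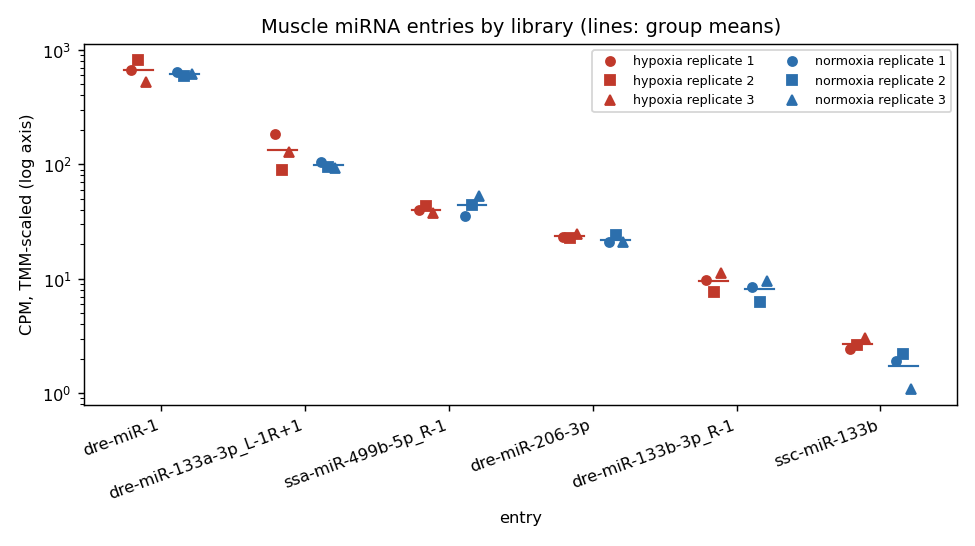
CPM of the 6 tested muscle miRNA entries on a log axis, 1 point per library (red, hypoxia; blue, normoxia), with lines at the group means of 3 libraries. Levels run from 526 to 809 CPM for dre-miR-1 down to 1.09 to 3.03 CPM for ssc-miR-133b, and the groups overlap in all but the last.

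dre-miR-1 was the main muscle sequence and made up 70.8% to 82.9% of the counts of the 10 entries. It stood at 667, 809 and 526 CPM in hypoxia replicates 1, 2 and 3, and at 635, 595 and 618 CPM in normoxia replicates 1, 2 and 3. The hypoxia libraries lay on both sides of the normoxia libraries, with replicate 2 the highest of the 6 and replicate 3 the lowest. The hypoxia mean was 668 ± 141.5 CPM and the normoxia mean 616 ± 19.98 CPM (SD, n = 3 per group). The log2 fold change was 0.12 ± 0.16 (SE), with a 95% interval from -0.24 to 0.48 (edgeR, Benjamini-Hochberg adjusted p = 0.731). Without hypoxia replicate 2 the sign turned, to -0.03 (edgeR, Benjamini-Hochberg adjusted p = 0.903). With each sequence at its listed value it stood at 317 to 487 CPM in hypoxia and 354 to 379 CPM in normoxia. Its printed level and its share of the muscle counts thus depend on the summing of its 2 listings. By mean CPM it ranked 91 among the 841 entries.

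dre-miR-1 was among the sequences poorest in G and C, at 27.3% GC, where the median of the tested entries was 45.5% and 10 of 519 were at or below it. Libraries differed in how log2 CPM, centred on each entry's 6-library mean, followed GC content, fitted together with length over 329 entries averaging 10 CPM or more. The hypoxia libraries, in replicate order, had slopes of 0.109, -0.065 and 0.112 for each 10 points of GC, and the normoxia libraries had slopes of -0.008, -0.078 and -0.071. Because of the centring, the sign of a slope is relative to the other libraries. dre-miR-1 was highest in hypoxia replicate 2 and lowest in hypoxia replicate 3. In hypoxia replicates 1 and 3, which had close slopes, dre-miR-1 lay 0.07 above and 0.27 below its 6-library mean on the log2 scale. With offsets for GC content and length, an alternative added after the data were seen, the log2 fold change of dre-miR-1 was 0.37, with a 95% interval from 0.06 to 0.68, and did not pass (edgeR, unadjusted p = 0.0246, Benjamini-Hochberg adjusted p = 0.193). In that fit all 6 muscle entries were above 0 and 1 of the 6 had an unadjusted p under 0.05, against 18.3% of all tested entries. The lowest of the 6, ssa-miR-499b-5p_R-1, stood at 0.0045, which was also the median of all tested entries in that fit. The part of base composition in the spread of dre-miR-1 was not tested.

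oha-miR-1a-3p, the miR-1 sequence with another last base, had its highest rate in hypoxia replicate 1, at 15.6 CPM against 0 to 1.90 CPM in the other libraries. It had 32, 6 and 0 counts in hypoxia replicates 1, 2 and 3, and 16, 5 and 7 in normoxia replicates 1, 2 and 3. Among the counts of both miR-1 entries it took 2.28% in hypoxia replicate 1, with an exact (Clopper-Pearson) 95% interval from 1.56% to 3.20%. This share rests on the summing of the 2 listings of dre-miR-1, where oha-miR-1a-3p has 1. With each sequence at its listed value, oha-miR-1a-3p stood at 18.7 CPM and dre-miR-1 at 400 CPM in that library, a higher share that the interval does not cover. Its share was 0.102%, 0.299%, 0.143% and 0.206% in hypoxia replicate 2 and normoxia replicates 1, 2 and 3. In hypoxia replicate 3 it was 0 of 3299 counts, with an exact 95% upper bound of 0.112%. The entry did not pass the filter, and the intervals cover counting error only, so they do not compare the libraries. With no filter on low counts, 2 of 10 muscle entries had an unadjusted edgeR p under 0.05, oha-miR-1a-3p and dre-miR-133a-3p_L-1R+1, against 14.4% of 841 entries, and neither passed. The library in question is also the shallowest, and the part of its depth or quality was not tested.

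**Figure D2:**
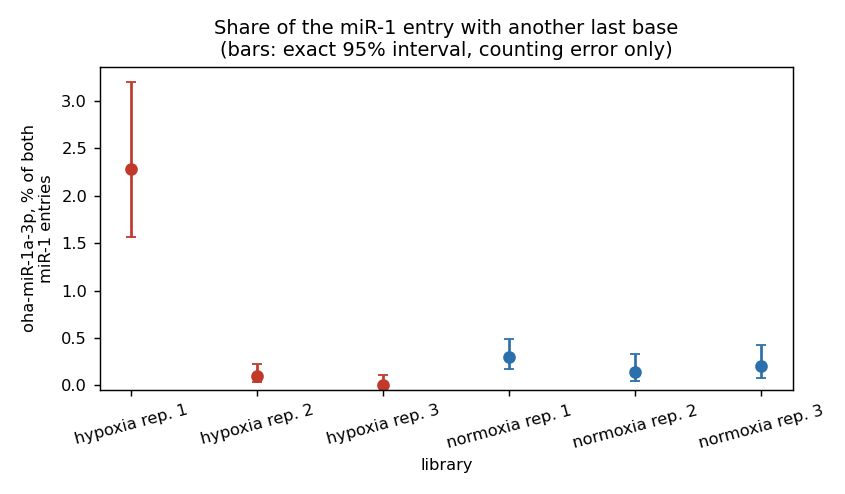
Share of oha-miR-1a-3p among the counts of both miR-1 entries, in percent, by library (red, hypoxia; blue, normoxia), with exact 95% intervals for counting error. Hypoxia replicate 1 stands at 2.28% and the other 5 libraries at 0% to 0.299%. The listings of dre-miR-1 were summed, which lowers the shares above 0.

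dre-miR-133a-3p_L-1R+1 came next in abundance and had the largest spread between libraries of the 5 entries above 5 CPM. It stood at 184, 89.6 and 128.1 CPM in hypoxia replicates 1, 2 and 3, and at 105.2, 95.1 and 93.2 CPM in normoxia replicates 1, 2 and 3. Hypoxia replicates 1 and 3 were above all normoxia libraries, and hypoxia replicate 2 was below them. The hypoxia mean was 134 ± 47.6 CPM and the normoxia mean 97.9 ± 6.44 CPM (SD, n = 3 per group). The log2 fold change of 0.44 ± 0.24 (SE), or 1.36-fold, had a 95% interval from -0.09 to 0.97 and missed the threshold (edgeR, Benjamini-Hochberg adjusted p = 0.350). The value turned on which hypoxia library was in the fit. Without hypoxia replicate 2 it was 0.68 and passed (edgeR, Benjamini-Hochberg adjusted p = 0.0488), in a fit that called 5.19% of 540 entries as higher in hypoxia. Without hypoxia replicate 1 it was 0.21 (edgeR, Benjamini-Hochberg adjusted p = 0.662). This sequence has 54.5% GC, and with offsets for GC content and length its log2 fold change was 0.42 (edgeR, Benjamini-Hochberg adjusted p = 0.360).

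The sequences named miR-133b were rare. dre-miR-133b-3p_R-1 stood at 9.72, 7.60 and 11.2 CPM in hypoxia replicates 1, 2 and 3, and at 8.44, 6.32 and 9.63 CPM in normoxia replicates 1, 2 and 3, with overlapping groups. Its log2 fold change was 0.22 ± 0.30 (SE), with a 95% interval from -0.46 to 0.89 (edgeR, Benjamini-Hochberg adjusted p = 0.731). ssc-miR-133b had 5, 19 and 19 counts in the hypoxia libraries and 16, 13 and 6 in the normoxia libraries, which is 2.43, 2.63 and 3.03 CPM against 1.90, 2.22 and 1.09 CPM. Here every hypoxia library was above every normoxia library, as was the case for 11.8% of all tested entries. The log2 fold change was 0.64 ± 0.55 (SE), with a 95% interval from -0.60 to 1.87 (edgeR, Benjamini-Hochberg adjusted p = 0.577). The 1 of 6 tested entries without overlap is thus the one with the fewest counts. That lack of overlap rested on the summing of its 2 listings. With each sequence at its listed value, ssc-miR-133b stood at 1.17 CPM in hypoxia replicate 1, below the 1.22 CPM of normoxia replicate 2, and it was not tested.

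dre-miR-206-3p, of the family most restricted to skeletal muscle in mammals, was the steadiest. It stood at 23.3, 22.7 and 24.7 CPM in hypoxia replicates 1, 2 and 3, and at 20.8, 24.2 and 20.9 CPM in normoxia replicates 1, 2 and 3. The groups overlapped through normoxia replicate 2. Its highest library was 1.19 times its lowest, where the median of that ratio was 1.59 over the 326 tested entries that averaged 10 CPM or more. The log2 fold change was 0.10 ± 0.19 (SE), with a 95% interval from -0.31 to 0.52 (edgeR, Benjamini-Hochberg adjusted p = 0.798). ssc-miR-206 had 5 counts in hypoxia replicate 3, 5 in normoxia replicate 1 and 0 in the other 4 libraries.

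ssa-miR-499b-5p_R-1 was the tested muscle entry with a lower mean in hypoxia than in normoxia. It stood at 39.9, 43.3 and 37.5 CPM in hypoxia replicates 1, 2 and 3, and at 35.3, 44.1 and 53.3 CPM in normoxia replicates 1, 2 and 3. The hypoxia libraries lay inside the range of the normoxia libraries. The log2 fold change was -0.13 ± 0.20 (SE), with a 95% interval from -0.57 to 0.30 (edgeR, Benjamini-Hochberg adjusted p = 0.747), and it was 0.04 without normoxia replicate 3 (edgeR, Benjamini-Hochberg adjusted p = 0.952).

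**Figure D3:**
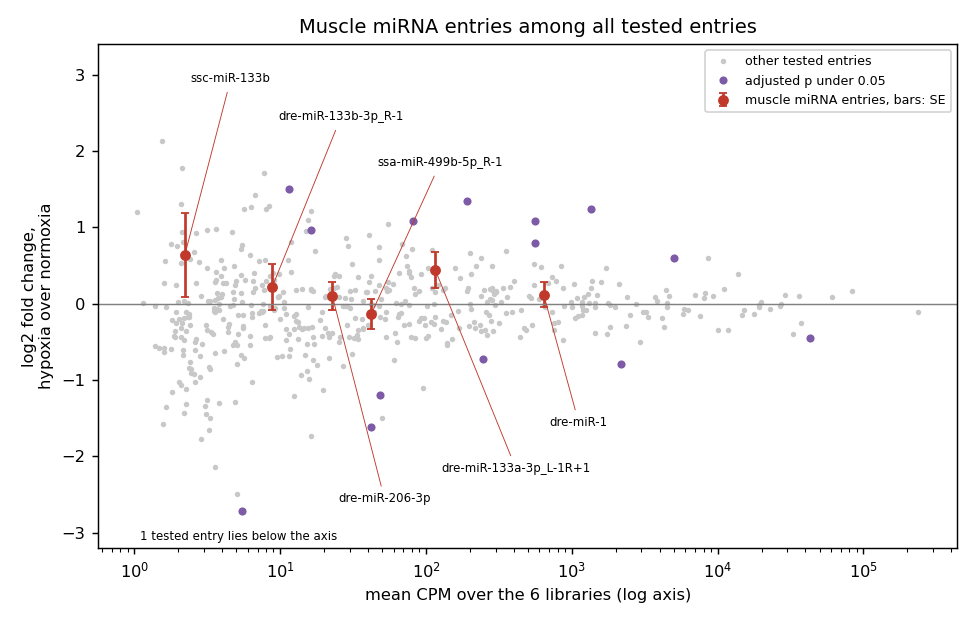
Log2 fold change, hypoxia over normoxia, against mean CPM (log axis) for all 519 tested entries (grey; purple, the 14 with an adjusted p under 0.05), with the 6 muscle miRNA entries in red and bars of 1 SE. The 6 lie between -0.13 and 0.64, among the uncalled entries.

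Of the 2 hairpins with both arms listed, 1 arm took nearly all counts. dre-miR-133a-5p had 7 counts in normoxia replicate 1, 5 in normoxia replicate 2 and 0 in the other libraries, which is 12 counts against 3785 of dre-miR-133a-3p_L-1R+1. This is 0.316% of both, with an exact (Clopper-Pearson) 95% interval from 0.163% to 0.551%. ssa-miR-499b-3p had 5 counts, all in normoxia replicate 3, against 1478 of ssa-miR-499b-5p_R-1, or 0.337% of both (exact 95% interval from 0.110% to 0.785%). In hypoxia replicate 1 a count of 3 was 1.46 CPM, above the 0.832 and 0.854 CPM of dre-miR-133a-5p in normoxia, so its absence from that library is not informative at this depth.

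The order of abundance was the same in all 6 libraries, from dre-miR-1 through dre-miR-133a-3p_L-1R+1, ssa-miR-499b-5p_R-1 and dre-miR-206-3p to dre-miR-133b-3p_R-1. Their lengths of 21 to 22 nt were alike, and the CPM ranges of neighbours in this order did not overlap. That dre-miR-133a-3p_L-1R+1 was above ssa-miR-499b-5p_R-1 in all 6 libraries, with ranges apart, rested on the summing of listings. With each sequence at its listed value, the former was below the latter in 1 of the 6 libraries, normoxia replicate 3, at 55.7 against 63.8 CPM. Levels of different sequences also carry their ligation and PCR preferences, which were not measured.

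Although the order held, dre-miR-1 and dre-miR-133a-3p_L-1R+1 differed in how they varied among the hypoxia libraries. The CPM of dre-miR-133a-3p_L-1R+1 was 27.6%, 11.1% and 24.3% of that of dre-miR-1 in hypoxia replicates 1, 2 and 3, and 16.6%, 16.0% and 15.1% in normoxia replicates 1, 2 and 3. The ratio was thus close among normoxia libraries and differed among hypoxia libraries in both directions. On the log2 scale, hypoxia replicate 2 was 0.35 above the 6-library mean for dre-miR-1 and 0.32 below it for dre-miR-133a-3p_L-1R+1, while hypoxia replicate 3 was 0.27 below for the first and 0.19 above for the second. dre-miR-206-3p ran at 2.80% to 4.70% of dre-miR-1, and ssa-miR-499b-5p_R-1 at 5.34% to 8.62%. Those 2 entries are listed once and dre-miR-1 is a sum of 2 listings, so both ratios are higher at listed values. In hypoxia replicate 1 the listed values were 28.0 CPM for dre-miR-206-3p, 47.9 CPM for ssa-miR-499b-5p_R-1 and 400 CPM for dre-miR-1. Of the 5 most abundant entries, all lay below their own mean in normoxia replicate 1, though dre-miR-1 by only 0.003. In hypoxia replicate 1, 4 of the 5 lay above their own mean.

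**Figure D4:**
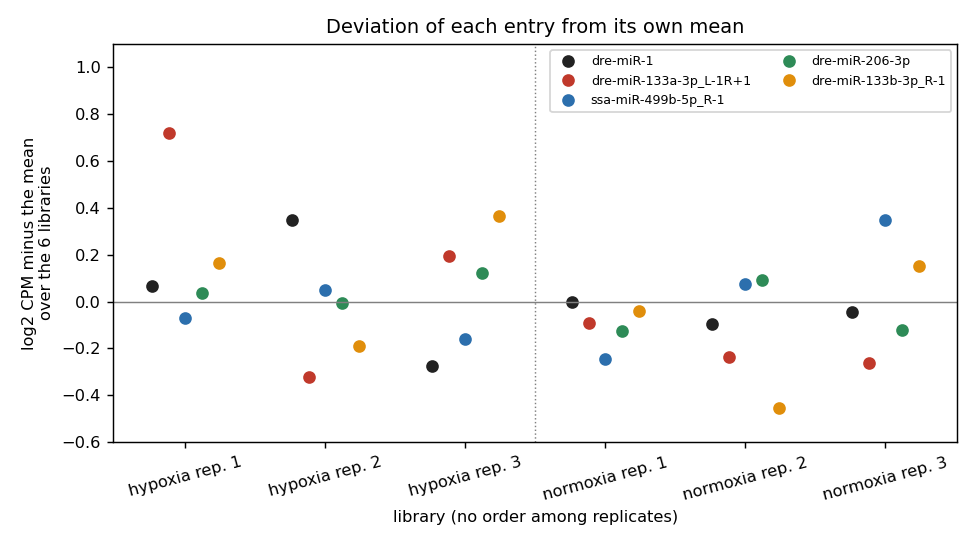
Log2 CPM of the 5 most abundant muscle miRNA entries in each library, minus the entry's mean over the 6 libraries. All 5 lie below 0 in normoxia replicate 1 (from -0.24 to -0.003) and on both sides of 0 in the other libraries. dre-miR-133a-3p_L-1R+1 reaches 0.72 in hypoxia replicate 1 and -0.32 in hypoxia replicate 2.

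Summed by family, the miR-1 entries stood at 526 to 810 CPM in hypoxia and 596 to 637 CPM in normoxia, and the miR-133 entries at 99.8 to 196 CPM and 104 to 116 CPM. The miR-206 entries stood at 22.7 to 25.5 CPM and 20.9 to 24.2 CPM, and the miR-499 entries at 37.5 to 43.3 CPM and 35.3 to 54.2 CPM. The groups overlapped for each family. The log2 ratios of the means, hypoxia over normoxia, were 0.13, 0.43, 0.10 and -0.15 for miR-1, miR-133, miR-206 and miR-499, and are given without a test. Their signs held under each scaling tried. With 1 library left out, the sign turned for miR-1 without hypoxia replicate 2 (-0.03) and for miR-499 without normoxia replicate 3 (0.02).

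**Figure D5:**
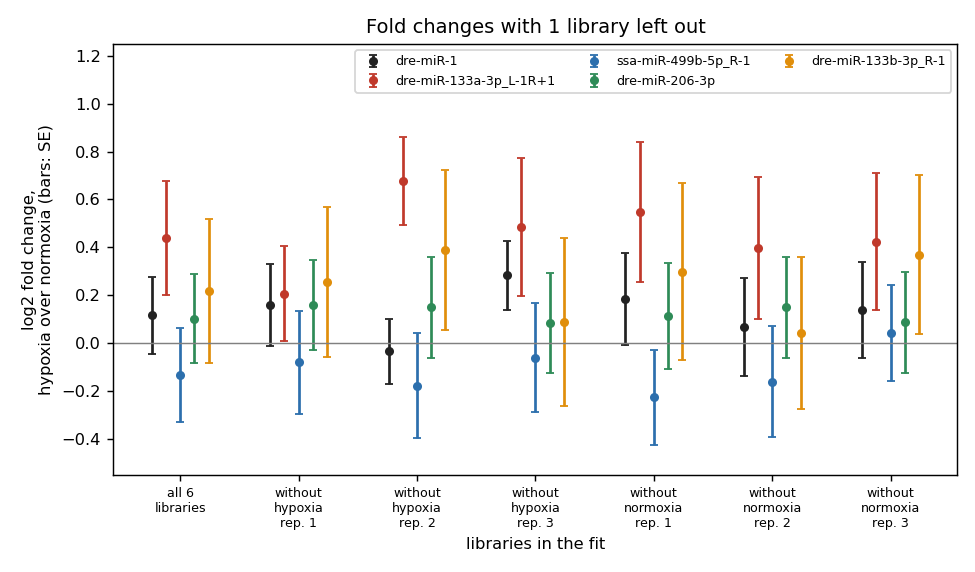
Log2 fold change, hypoxia over normoxia, with bars of 1 SE, of the 5 most abundant muscle miRNA entries, with all 6 libraries and with each library left out. dre-miR-133a-3p_L-1R+1 runs from 0.21 without hypoxia replicate 1 to 0.68 without hypoxia replicate 2.

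Set beside the marker families of other cell types, the muscle miRNAs summed to more than the neural families and to less than each of the other lists. All 10 entries summed to 942, 976 and 732 CPM in hypoxia replicates 1, 2 and 3 and to 810, 769 and 798 CPM in normoxia replicates 1, 2 and 3. In bulk vesicle RNA a smaller number of source cells and less RNA per cell cannot be told apart. Which cells the muscle sequences came from was not tested. The smooth muscle and fibroblast families miR-143, miR-145, miR-199 and miR-214 summed to 83679 to 85807 CPM in hypoxia and 82053 to 86893 CPM in normoxia, and 0 of their 14 tested entries passed by edgeR, where 1 had an unadjusted p under 0.05. The neural families summed to 97.6 to 139.5 CPM and 96.4 to 113 CPM (0 of 3 passed, none with an unadjusted p under 0.05), and the pancreas families to 1121 to 1398 CPM and, just above, 1399 to 1653 CPM (0 of 4 passed, 2 with an unadjusted p under 0.05). Of all 519 tested entries, 18.5% had an unadjusted p under 0.05 by edgeR.

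The erythrocyte families miR-451 and miR-144 moved with the groups in the same libraries. They summed to 7190 to 9162 CPM in hypoxia and 4810 to 5898 CPM in normoxia, and 2 of their 6 tested entries rose, where 2.70% of all tested entries were called in either direction. dre-miR-451 had a log2 fold change of 0.60 ± 0.13 (SE) and gmo-miR-144-3p one of 1.09 ± 0.23 (SE), both at an edgeR Benjamini-Hochberg adjusted p of 0.0494. With 1 library left out, the first passed in 1 of 6 fits (without hypoxia replicate 2) and the second in 2 of 6 (without hypoxia replicate 2 or 3). In the other 11 alternatives they passed in 9 and 8. The first was lost with a replicate block and with all sequences kept apart, and the second with total counts only, all sequences kept apart, and GC and length offsets. miR-486, also grouped with erythrocyte miRNAs, was counted in the muscle-linked list instead. There bta-miR-486, at a mean of 15.8 CPM, went the other way and did not pass (log2 fold change -0.98, edgeR, Benjamini-Hochberg adjusted p = 0.152). The endothelial family miR-126 summed to 15767 to 17733 CPM in hypoxia and 11829 to 13516 CPM in normoxia. None of its 4 tested entries passed by edgeR, and 1 had an unadjusted p under 0.05. The part of blood or vessel content in the muscle values was not tested. Leukocyte (6 tested), epithelial (12 tested) and hepatocyte (4 tested) families had 0 entries passing by edgeR. Those with an unadjusted p under 0.05 numbered 0, 2 and 1, where the share of all tested entries was 18.5%. The epithelial families summed to 2549 to 2956 CPM in hypoxia and 3017 to 3372 CPM in normoxia, without overlap, and the leukocyte families to 3667 to 4026 CPM and 3552 to 4262 CPM. The sums of lists were not tested and have no share over all entries beside them. A lack of overlap between their groups is therefore not a result about the families.

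Other miRNAs linked to heart, skeletal muscle or muscle differentiation were read from a list of 12 family numbers, of which 11 had entries. The cardiac family miR-208 had 0. Of the 63 tested entries of this list 0 rose and 2 fell, and 61 did not pass, with 25 above a fold change of 1 and a median log2 fold change of -0.05, against -0.04 over all 519. The share called was near that of all tested entries (2.70%), so it is not a result about the list. The 2 that fell were miR-26 entries, which belong to a family found in many tissues. dre-miR-26a-5p stood at 32711, 39885 and 35710 CPM in hypoxia replicates 1, 2 and 3 and at 47112, 53485 and 47711 CPM in normoxia (log2 fold change -0.45 ± 0.10 (SE), edgeR, Benjamini-Hochberg adjusted p = 0.0494). gmo-miR-26b-5p_R+1_1ss22TA had a log2 fold change of -1.19 ± 0.26 (SE) at the same adjusted p. With 1 library left out, both miR-26 entries passed in 1 of 6 fits (without hypoxia replicate 2), and in 6 of the other 11 alternatives. Both were lost with total counts only, upper-quartile scaling, listed values, all sequences kept apart, and GC and length offsets. dre-miR-30c-5p_R+1, the other most abundant entry of the list, had one of -0.15 ± 0.10 (SE).

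The annotated entries whose library pattern was nearest to that of a muscle miRNA were found by the mean absolute difference of log2 CPM, each centred over the 6 libraries, among 161 to 162 entries averaging 100 CPM or more. Nearest to dre-miR-1 were gmo-miR-101a-3p_1ss21AC, gmo-miR-101a-3p and ssa-miR-30d-2-3p_2ss1TC22CT, at 0.075, 0.090 and 0.100, where the median over all was 0.218. Nearest to dre-miR-133a-3p_L-1R+1 were dre-miR-15b-5p_R-1, mmu-mir-6236-p3_1ss8AG and aca-let-7b-3p_R+1, at 0.087, 0.100 and 0.119 (median 0.323). Nearest to dre-miR-206-3p were ssa-miR-143-5p_R-1, dre-let-7j and dre-miR-30e-5p_R+2, at 0.046, 0.056 and 0.070 (median 0.182). Nearest to ssa-miR-499b-5p_R-1 were dre-miR-21_1ss23CA, dre-miR-152_R-2_1ss10GA and dre-miR-20a-5p_1ss12TC, at 0.071, 0.079 and 0.082 (median 0.221). No muscle miRNA was among the nearest of another, though of the muscle entries only dre-miR-1 and dre-miR-133a-3p_L-1R+1 reached the level needed to be a candidate. The points share libraries and their depth and base composition trends.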

How the data were processed

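Small RNA of liver vesicles was ligated, reverse transcribed, amplified and sequenced on a NovaSeq X Plus, and reads were cut to single ends, per the labels' protocols. The sources used here name no aligner, genome build, miRNA caller or filter. The authors deposited 1 table of unscaled estimated counts, 1088 rows with 874 distinct sequences, per the file headers and values. Repeated listings of 1 sequence held equal values and were summed, on the assumption that reads had been divided among them, which accounts for only part of the fractional values (of values above 0, 76.9% were whole numbers in the table and 88.3% once summed, within 1e-06). In 18 cases different sequences with equal values in all libraries, and names with the same species prefix and family number, were joined. Whether they came from 1 precursor was not checked. The 841 entries were rounded to whole numbers.

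Hypoxia was compared with normoxia over all 519 entries kept by filterByExpr, with TMM scaling and edgeR 4.0.16 (quasi-likelihood test, no block), Benjamini-Hochberg adjustment over all entries and a threshold of 0.05. Standard errors were the absolute log2 fold change over the square root of F, and intervals used the test's degrees of freedom. The fit was tested on simulated data, where it called 1.62% of unchanged entries. It called 24.2%, 60.3% and 93.5% of entries with simulated log2 changes of 0.5, 1 and 2 in either direction, so small changes were often missed. Alternatives used other scalings, no filter, DESeq2 1.42.0, limma 3.58.1 (voom), a replicate block, other handling of listings, annotated entries only, each library left out, and GC and length offsets. Counts of replicates differed by more than sampling noise in each pair (smallest chi-square per degree of freedom, 43.7).

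The families, lists and tests were chosen with earlier results of these data known. Named were all muscle entries, the 3 nearest patterns of each family's most abundant entry, called entries of the lists and the 2 most abundant of the muscle-linked list. The most abundant entries of the other cell type lists, also in that rule, are given as part of their list only. Library totals of 2038299 to 8497215 set the depth.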

Additional observations from a re-analysis of the deposited data

How the results depend on the processing

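Among the 6 tested muscle miRNA entries, the count of calls stayed at 0 in every alternative except without hypoxia replicate 2, so that it ranged from 0 to 1 with 1 library left out. That call was dre-miR-133a-3p_L-1R+1, whose log2 fold change ranged from 0.21 to 0.68 over those 6 fits. dre-miR-1 ranged from -0.034 to 0.283 and ssa-miR-499b-5p_R-1 from -0.228 to 0.0415 in the same fits. The direction turned for the first without hypoxia replicate 2 (-0.034) and for the second without normoxia replicate 3 (0.0415) and with GC and length offsets (0.0045). The cause was not tested. Over all entries, 14 were called in the fit as reported, 5 with total counts only, 59 with no filter on low counts, 41 with DESeq2, 22 with limma-voom, 3 with all sequences kept apart and 3 with GC and length offsets, and 0 to 52 with 1 library left out. With a replicate block 7 entries were called and 0 of the 6. Libraries of the same number did not deviate together (Pearson r across 519 entries, which are not independent replicates, of -0.13, -0.06 and -0.05 for numbers 1, 2 and 3). The values were centred within each group of few libraries, so this cannot exclude a shared batch or preparation. The labels give only the number. The log2 ratios of the summed families moved by less than the replicate SD in each alternative, while the miR-1 and miR-133 levels in CPM were lower with each sequence at its listed value. ssc-miR-133b rests on 5 to 19 counts in each library, and its interval is wide.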
